A study of Mus musculus with 12 samples.

Results

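The 95 genes described here encode proteins of oxidative phosphorylation (OXPHOS) and were found by name among the 55536 genes listed in the deposited tables. Their names start with mt-Nd, mt-Co, mt-Atp, mt-Cytb, Ndufa, Ndufb, Ndufc, Ndufs, Ndufv, Uqcr, Atp5, Cox4i, Cox5, Cox6, Cox7 or Cox8. Of 116 such names, 9 hold -ps, 2 (Cox7a1 and Cox8b) were set aside by the rule, and 10 had a mean under 10 over the 12 libraries. The last group holds mt-Atp8, mt-Nd3 and mt-Nd4l of the mitochondrial genome and 7 nuclear entries. Of the 95 members, 10 are encoded in the mitochondrial genome and 85 in the nucleus, and all 95 passed the filter on low values in both comparisons, which asked for 10 or more in 4 or more of the 8 libraries compared.

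The members were measured in polyadenylated RNA of the stromal vascular fraction (SVF) of inguinal fat, the cells left once lipid-filled adipocytes are removed. The 12 libraries came from 12 male mice of mixed C57BL6/J-129SV background kept at room temperature: 4 Pdgfrβ-KO mice of 12 months, 4 controls of 12 months and 4 controls of 2 months. The KO mice carried Sma-CreERT2, a reporter and Pdgfrβ fl/fl and received tamoxifen, so that Pdgfrβ was deleted only in Sma-expressing cells, while the SVF was sequenced whole. The labels call all controls wild type, while the paper names the 12-month controls of this comparison Sma-Control, its term for Sma-CreERT2 reporter mice that lack the floxed alleles. By that name the Cre was common to KO and 12-month controls; by the label it was not. Tamoxifen is stated for the sequenced KO mice and not for the sequenced controls, so the KO cannot be told apart from tamoxifen. Each library is labelled as a biological replicate. In bulk SVF, fewer cells of a type and less RNA per cell cannot be told apart.

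OXPHOS complexes I, III and IV pass electrons from NADH to oxygen and pump protons across the inner mitochondrial membrane, and complex V uses the proton gradient to make ATP. Complexes I, III, IV and V are each built from subunits of both genomes, which are transcribed by separate machineries: the mitochondrial polymerase reads both strands of a small circle into long precursors, and nuclear subunits are transcribed gene by gene and imported. In fat, dense OXPHOS is best known from brown and beige adipocytes. By complex, the members are 5 mitochondrial and 36 nuclear genes of complex I, 1 and 8 of complex III, 3 and 16 of complex IV, and 1 and 17 of complex V. The 8 Ndufaf genes, which assemble complex I but are not part of it, were counted apart, and Ndufa4, Ndufa4l2 and Cox7a2l were counted with complex IV. No name of the rule belongs to complex II.

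The values are gene counts divided by a size factor and rounded by the authors, called normalized values here. Library totals of these values lay between 19.6 and 21.9 M, made alike by the division. Pdgfrb, which checks the labels, had 1882, 2145, 1707 and 1749 in the KO libraries, against 3000, 4380, 3258 and 2399 in the 12-month controls, a log2 fold change of -0.77 (SE 0.17, adjusted p = 0.0160 from limma). Over all genes, 1853 of 16399 tested were higher and 1874 lower in 12-month than in 2-month controls, and 810 of 16344 were higher and 729 lower in KO than in 12-month control libraries. These are 11.3% and 11.4% of genes with age and 4.96% and 4.46% with KO. Together, 3727 genes differed with age (2454 without 2-month control replicate 3 and 2356 without replicate 4), and 1539 with KO (895, 885 and 859 without 12-month control replicate 1, 2 or 3, and 889 without KO replicate 1). Here and below a gene is called at an adjusted p under 0.05 from limma, two-sided, over all genes tested. Fold changes are on the log2(value + 1) scale, which understates the change of low genes. Both comparisons use the same 12-month controls, so they are not independent.

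A limit on several mitochondrial members lies in their sequence. A stretch of chromosome 1 holds unprocessed pseudogene copies of part of the mitochondrial genome. Gm28661 (chr1:24614885-24615565, GRCm38, minus strand) matches mt-Co2 in 681 of 681 aligned bases, Gm28437 (chr1:24613189-24613971) matches mt-Co3 in 783 of 783, and Gm10925 (chr1:24613974-24614651) matches mt-Atp6 in 678 of 678. The first 60 bases of mt-Co2 and of its copy are shown because a read from this stretch fits both places. The first 60 bases of Gm29216 (chr1:24615706-24616197) and the matching stretch of mt-Co1, from base 1054 of its transcript, are shown with the bases that differ in capitals.
mt-Co2: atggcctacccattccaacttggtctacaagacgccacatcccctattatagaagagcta
Gm28661: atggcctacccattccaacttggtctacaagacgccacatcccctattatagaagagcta
mt-Co1: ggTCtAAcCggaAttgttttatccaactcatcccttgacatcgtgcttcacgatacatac
Gm29216: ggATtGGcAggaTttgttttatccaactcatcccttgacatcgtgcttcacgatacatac

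Of the windows of 50 bases along each transcript, 100% of mt-Co2, 99.9% of mt-Co3, 99.5% of mt-Atp6, 62.2% of mt-Nd4 and 51.1% of mt-Co1 also occur in another gene's transcript. The share is 8.19% for mt-Nd2, 7.61% for mt-Nd5, and 0% for mt-Nd1, mt-Nd6 and mt-Cytb. mt-Co2, mt-Co3 and mt-Atp6 averaged 148, 101 and 74.3 over the 12 libraries, against 95378 for mt-Co1. How reads with several matches were counted is not given in the sources used here, so the values of mt-Co2, mt-Co3 and mt-Atp6 are reported as uncertain, and those of mt-Nd4 and mt-Co1 in part. Some nuclear members given library by library share windows too: 50.5% for Atp5h, 43.4% for Uqcrb, 38.7% for Atp5f1 and 19.8% for Cox7a2l. The same limit holds for these nuclear members in part.

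Per kilobase of transcript, 6 of the 10 mitochondrially encoded members (mt-Co1, mt-Cytb, mt-Nd1, mt-Nd2, mt-Nd5 and mt-Nd4) had higher 2-month control means than any nuclear member. The other 4 were far lower, with means over the 12 libraries of 735 per kilobase for mt-Nd6, 217 for mt-Co2, 129 for mt-Co3 and 109 for mt-Atp6. mt-Co1, the catalytic core of complex IV, had a mean of 32630 per kilobase in KO libraries, 47591 in 12-month controls and 104980 in 2-month controls. mt-Cytb, the electron-carrying core of complex III, had 15141 in KO libraries, 25435 in 12-month controls and 65462 in 2-month controls. In KO and 12-month control means, the highest nuclear member per kilobase was Cox4i1, a subunit of complex IV. It had 12038 in KO libraries, 8977 in 12-month controls and 6606 in 2-month controls. Atp5b, the catalytic β subunit of complex V, had 8113 in KO libraries, 7121 in 12-month controls and 7068 in 2-month controls. It lay above Cox4i1 in 2-month controls only. Cox4i1 per kilobase lay above mt-Nd2, mt-Nd5 and mt-Nd4 in KO means, above mt-Nd5 and mt-Nd4 in 12-month control means, and below all 3 in 2-month control means.

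Summed over members, mitochondrially encoded genes had lower means, and nuclear encoded genes higher means, in KO than in 12-month controls and in 12-month than in 2-month controls. The 10 mitochondrial members together had 64067, 87190, 108968 and 125623 in the KO libraries, 116978, 150666, 195019 and 138408 in the 12-month controls, and 307779, 300703, 480044 and 323363 in the 2-month controls. The 85 nuclear members together had 155247, 172627, 122444 and 109585 in the KO libraries, 107571, 120949, 95176 and 116547 in the 12-month controls, and 101560, 85719, 89231 and 94852 in the 2-month controls. The mitochondrial sums of the 2 control ages did not overlap, and those of KO and 12-month controls overlapped in KO replicate 4 only. The nuclear sums overlapped in both comparisons: KO replicate 4 lay within the 12-month controls, and 12-month control replicate 3 lay below 2-month control replicate 1.

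The ratio of the mitochondrial to the nuclear sum was 0.413, 0.505, 0.890 and 1.15 in the KO libraries, 1.09, 1.25, 2.05 and 1.19 in the 12-month controls, and 3.03, 3.51, 5.38 and 3.41 in the 2-month controls. On the log2 scale it averaged -0.56 ± 0.69 in KO, 0.43 ± 0.41 in 12-month controls and 1.90 ± 0.36 in 2-month controls (SD, n = 4 each). The mean difference was -1.47 for 12-month minus 2-month controls and -0.99 for KO minus 12-month controls. The control ages did not overlap in this ratio, and 3 of the 4 KO libraries lay below every 12-month control. The ratio is of summed reads, not per length, and it is a description with no test.

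**Figure D1:**
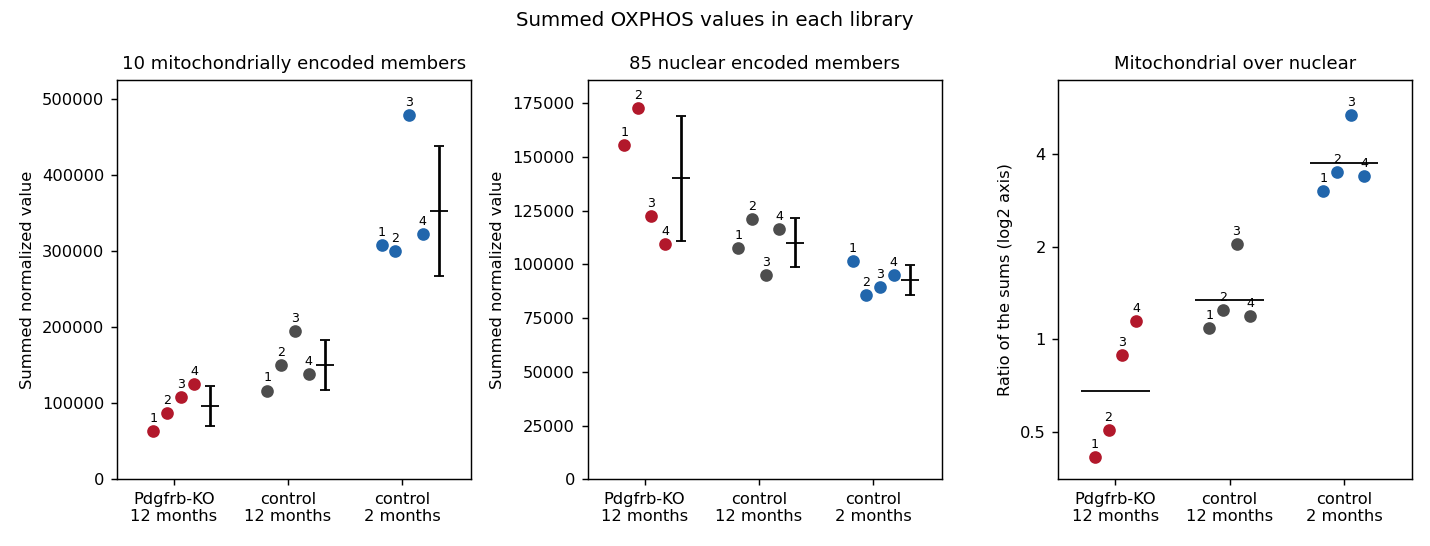
Summed normalized values of the 10 mitochondrially encoded members (left) and the 85 nuclear encoded members (middle), and the ratio of the sums on a log2 axis (right), in each library by group. Points are libraries with their replicate number, bars are mean ± SD in the first panels, and lines in the last are geometric means; the ratio lies between 0.413 and 1.15 in KO libraries, 1.09 and 2.05 in 12-month controls, and 3.03 and 5.38 in 2-month controls.

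The sums were also taken complex by complex. Of complex I, the mitochondrial members summed to 28503 ± 8936 in KO, 47375 ± 10933 in 12-month controls and 115411 ± 31071 in 2-month controls, and the nuclear members to 37950 ± 8260 in KO, 29517 ± 3521 in 12-month controls and 24570 ± 2058 in 2-month controls (SD, n = 4 each). For complex III the single mitochondrial member, mt-Cytb, averaged 17321 ± 4382 in KO, 29098 ± 4822 in 12-month controls and 74889 ± 17695 in 2-month controls, and the nuclear members summed to 13609 ± 2604 in KO, 10976 ± 1157 in 12-month controls and 8942 ± 594 in 2-month controls. For complex IV the mitochondrial sum was 50594 ± 13697 in KO, 73736 ± 17323 in 12-month controls and 162553 ± 36825 in 2-month controls, and the nuclear sum 30223 ± 8614 in KO, 23288 ± 3498 in 12-month controls and 18003 ± 1848 in 2-month controls. That mitochondrial sum was nearly all mt-Co1, which alone averaged 50413 in KO, 73528 in 12-month controls and 162194 in 2-month controls. For complex V the nuclear members summed to 56127 ± 9256 in KO, 44562 ± 3276 in 12-month controls and 39926 ± 2416 in 2-month controls, and its mitochondrial member mt-Atp6 is among the uncertain genes.

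**Figure D2:**
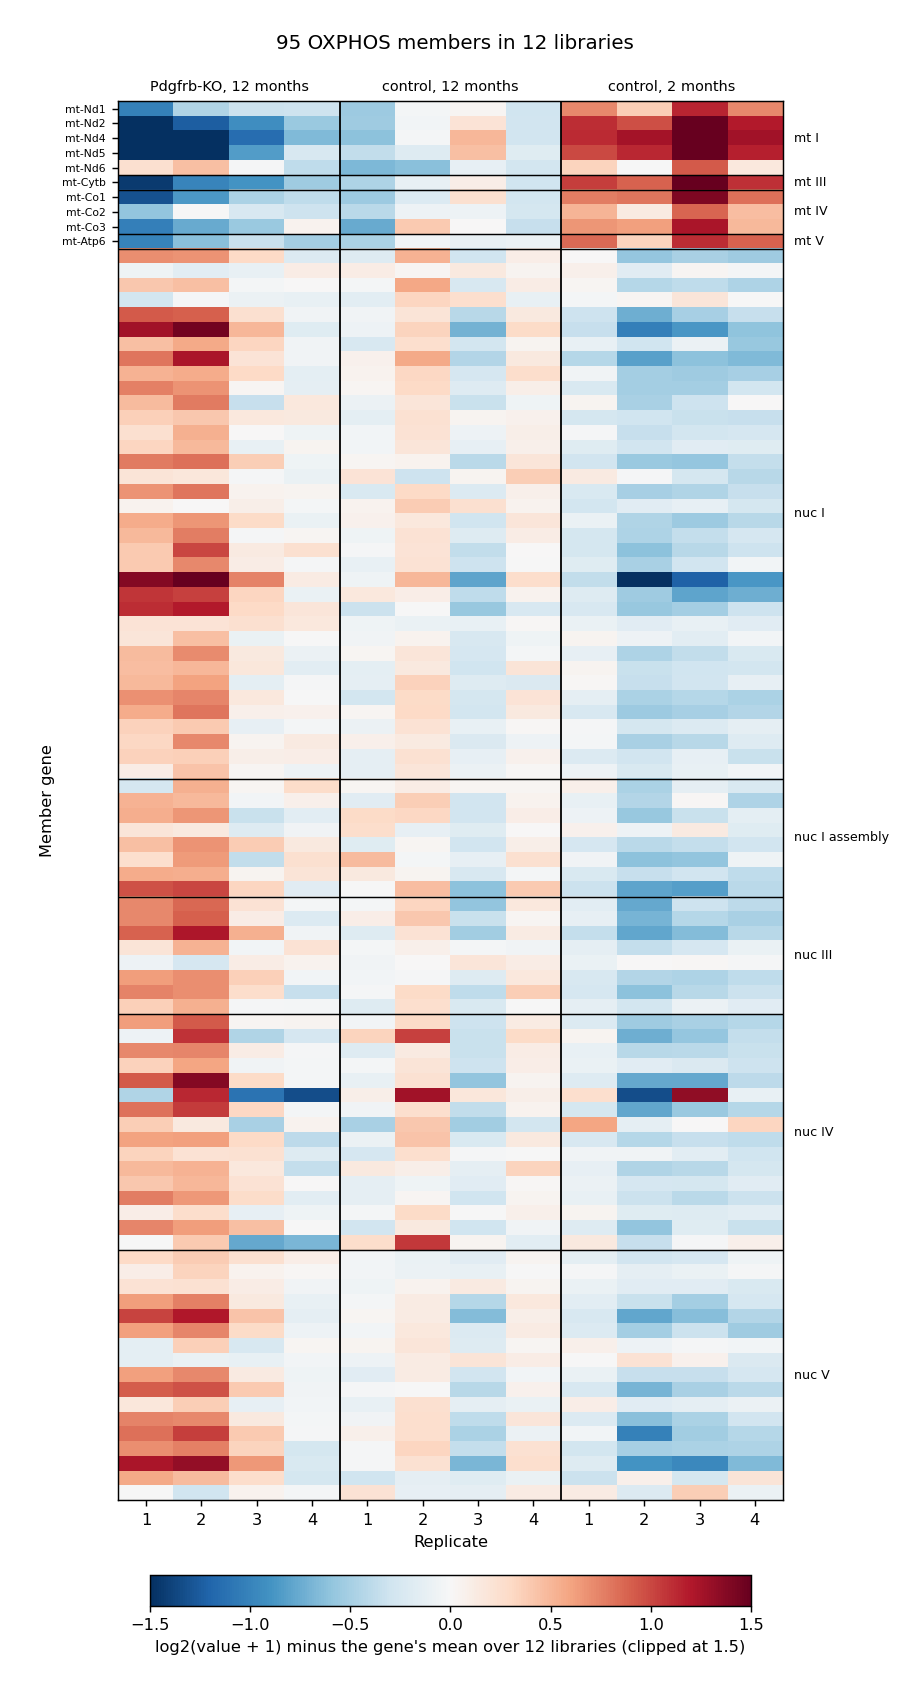
All 95 members (rows, by genome and complex, with the mitochondrial rows named) in the 12 libraries (columns, by group and replicate), as log2(value + 1) minus the gene's mean over 12 libraries, with the color clipped at 1.5. The mitochondrial block at the top is mostly red in 2-month controls and, apart from mt-Nd6, mostly blue in KO replicates 1 and 2, where most nuclear rows are red; KO replicate 4 is pale in most rows.

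With age, every mitochondrially encoded member fell: all 10 were lower in 12-month than in 2-month controls, where 11.4% of all tested genes were lower. In none of these 10 members did the groups overlap, a count given without its share over all tested genes, which was not computed. Their log2 fold changes ran between -1.52 and -0.70 with a median of -1.06, against -0.01 over all tested genes. Each had an exact permutation p of 0.0286, the smallest that 70 regroupings of 4 against 4 libraries can give. Without 2-month control replicate 3, mt-Co3 missed the threshold (adjusted p = 0.0599 from limma) and the other 9 remained below it.

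Among the complex I genes, mt-Nd4, a proton-pumping membrane subunit, fell most. It had 5312, 7997, 11486 and 6687 in the 12-month controls, against 17710, 19373, 33200 and 19528 in the 2-month controls, a log2 fold change of -1.52 (SE 0.23, adjusted p = 0.000922 from limma). mt-Nd2, also a membrane pump subunit, had 7379, 10373, 12290 and 8724 at 12 months, against 22931, 20814, 36820 and 24397 at 2 months, a change of -1.43 (SE 0.19, adjusted p = 0.000366 from limma). For both genes the highest 12-month control lay well below the lowest 2-month control.

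mt-Nd5, a membrane pump subunit at the far end of the arm, had 11341, 12902, 20082 and 12972 in the 12-month controls, against 29133, 32280, 52504 and 32976 in the 2-month controls, a log2 fold change of -1.35 (SE 0.20). mt-Nd1, at the joint of the 2 arms of complex I, had 11937, 16995, 17742 and 14183 at 12 months, against 28554, 22490, 38327 and 28691 at 2 months, a change of -0.95 (SE 0.17). mt-Nd6, the only OXPHOS gene on the light strand of the mitochondrial genome (chrM:13552-14070, minus strand), had 227, 235, 335 and 300 at 12 months, against 459, 363, 686 and 407 at 2 months, a change of -0.78 (SE 0.19). Among these complex I genes the margin was narrowest for mt-Nd6, whose highest 12-month value was 335 and lowest 2-month value 363.

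mt-Cytb of complex III had 23982, 30387, 35170 and 26853 in the 12-month controls, against 67635, 60607, 100671 and 70642 in the 2-month controls, a log2 fold change of -1.35 (SE 0.16, adjusted p = 0.00021 from limma). mt-Co1 of complex IV had 56592, 71458, 97626 and 68437 at 12 months, against 140888, 144396, 217216 and 146274 at 2 months, a change of -1.15 (SE 0.18). No mitochondrial member was more abundant than mt-Co1, and without it the log2 ratio of sums differed by -1.55 between the ages.

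The uncertain genes moved the same way. mt-Co2, which holds the copper site that takes electrons from cytochrome c, had 107, 135, 135 and 118 in the 12-month controls, against 203, 156, 261 and 196 in the 2-month controls (log2 fold change -0.70, SE 0.16). mt-Co3, a structural core subunit, had 53, 119, 91 and 71 at 12 months, against 144, 139, 213 and 127 at 2 months (-0.92, SE 0.24), and mt-Atp6, the proton channel of complex V, had 48, 65, 62 and 63 at 12 months, against 122, 85, 146 and 125 at 2 months (-0.98, SE 0.19). Of the listed chromosome 1 copies, 6 were tested and all 6 were lower at 12 months too, with a median of -1.25.

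The 2 mitochondrial ribosomal RNAs were lower as well. mt-Rnr2 had 30067, 31242, 31885 and 26410 in the 12-month controls, against 36004, 34814, 39853 and 37554 in the 2-month controls, a log2 fold change of -0.31 (SE 0.10, adjusted p = 0.0399 from limma), and mt-Rnr1 changed by -0.35 (SE 0.10, adjusted p = 0.0215 from limma). Neither ribosomal RNA passed in KO (median -0.25). Together they had 42853, 41325, 32757 and 25881 in KO, against 42125, 44669, 44025 and 37617 in the 12-month controls. The KO libraries ran from highest to lowest in this sum, and from lowest to highest in the sum of the mitochondrial members. Ribosomal RNA reaches poly(A)-selected libraries only in part, and whether it changed less than the mRNAs was not tested.

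Of the 85 nuclear members, 22 were higher at 12 months, 0 were lower and 63 did not pass, beside 11.3% of all tested genes higher. At an unadjusted p under 0.05 from limma, 45 members were higher and 0 lower, beside 2994 of 16399 tested genes higher and 3075 lower. The median log2 fold change of the nuclear members was 0.27, and 81 of 85 values were above 0, beside 8058 of 16399 tested genes. By complex, 13 of 36 nuclear members of complex I, 3 of 8 of complex III, 4 of 16 of complex IV and 2 of 17 of complex V were higher, with medians of 0.31, 0.37, 0.29 and 0.21. None of the 8 assembly factors passed (median 0.26).

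The number of nuclear members called was set by single libraries. It was 2 without 2-month control replicate 2, 4 without replicate 3 and 6 without replicate 4 of that group. It was 13 without 12-month control replicate 1, 7 without replicate 2, 40 without replicate 3 and 4 without replicate 4. In one fit over all 12 libraries it was 1, and without trend and robust estimation it was 6. All genes called with age moved too, between 2356 and 3961 when 1 library was left out. The median of the nuclear members lay between 0.22 and 0.36 when any 1 library was left out, and between 78 and 82 of the 85 values stayed above 0.

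Ndufa9, an accessory subunit of complex I, had the smallest p of the nuclear members of that complex. It had 1192, 1539, 1356 and 1383 in the 12-month controls, against 1097, 1069, 1044 and 1034 in the 2-month controls, a log2 fold change of 0.36 (SE 0.09, adjusted p = 0.0137 from limma, exact permutation p = 0.0286). The ages did not overlap, and Ndufa9 passed the threshold with any 1 library left out. Also higher in complex I were Ndufa5 (0.72, SE 0.18), Ndufs7, which carries an iron-sulfur cluster (0.48, SE 0.12), Ndufa7 (0.44, SE 0.12) and Ndufa6 (0.49, SE 0.14), and the largest change was that of Ndufb9 (1.02, SE 0.31).

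In complex III, Uqcrfs1, the Rieske iron-sulfur protein, had 1522, 1547, 1367 and 1748 in the 12-month controls, against 1324, 1153, 1136 and 1199 in the 2-month controls, a log2 fold change of 0.36 (SE 0.09, adjusted p = 0.0174 from limma). It missed the threshold without 2-month control replicate 2 (adjusted p = 0.0507 from limma), without 2-month control replicate 3 (0.0573) or without 12-month control replicate 4 (0.0528). The ages did not overlap. Uqcrh (0.46) and Uqcr11 (0.48), 2 small subunits, were higher as well. Uqcrc1, a core protein and the most abundant nuclear member of complex III, had 2576, 2770, 2571 and 2534 at 12 months, against 2400, 2048, 2202 and 2458 at 2 months, with no overlap but a smaller change (0.20, SE 0.08, adjusted p = 0.105 from limma).

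In complex IV, Cox7a2l, which joins complexes III and IV into supercomplexes, had 4476, 4307, 3667 and 5080 in the 12-month controls, against 3723, 2955, 3034 and 3367 in the 2-month controls, a log2 fold change of 0.42 (SE 0.11, adjusted p = 0.0206 from limma). Cox4i1, the widely expressed form of subunit 4, had 6536, 8190, 5412 and 7332 at 12 months, against 5811, 4627, 4783 and 4992 at 2 months (0.43, SE 0.13, adjusted p = 0.0302 from limma). In both genes the lowest 12-month control, replicate 3, lay below the highest 2-month control, replicate 1. Cox6b1 (0.48) and Cox6c (0.41) were also higher. Cox7a2l lost its call without 2-month control replicate 2 (adjusted p = 0.0638 from limma), 2-month control replicate 3 (0.0649) or 12-month control replicate 4 (0.0567), and Cox4i1 lost its call without any of 2-month replicates 2, 3 and 4 or 12-month replicates 2 and 4, with adjusted p between 0.0614 and 0.0848 from limma.

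In complex V, Atp5f1, the subunit b of the stalk that holds the catalytic head, had 2317, 2662, 2073 and 2586 in the 12-month controls, against 2063, 1669, 1907 and 1643 in the 2-month controls, a log2 fold change of 0.40 (SE 0.11, adjusted p = 0.0185 from limma). It lost the call without 2-month control replicate 2 (adjusted p = 0.0572 from limma), 2-month control replicate 4 (0.0627) or 12-month control replicate 4 (0.0515). Atp5l, a subunit of the membrane part, was the other call (0.47, SE 0.13), and 84.9% of its windows of 50 bases also occur in other genes. Atp5b, the most abundant of the nuclear members, had 13820, 13393, 13170 and 14189 at 12 months, against 14017, 12910, 13193 and 14049 at 2 months (0.01, SE 0.08), and its ages overlapped. Of the assembly factors, Ndufaf7 had 436, 405, 334 and 387 at 12 months, against 337, 310, 324 and 303 at 2 months (0.29, SE 0.11, adjusted p = 0.0719 from limma), and Ndufaf8 had 212, 294, 139 and 280 at 12 months, against 170, 123, 120 and 161 at 2 months (0.64, SE 0.22, adjusted p = 0.0568 from limma).

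**Figure D3:**
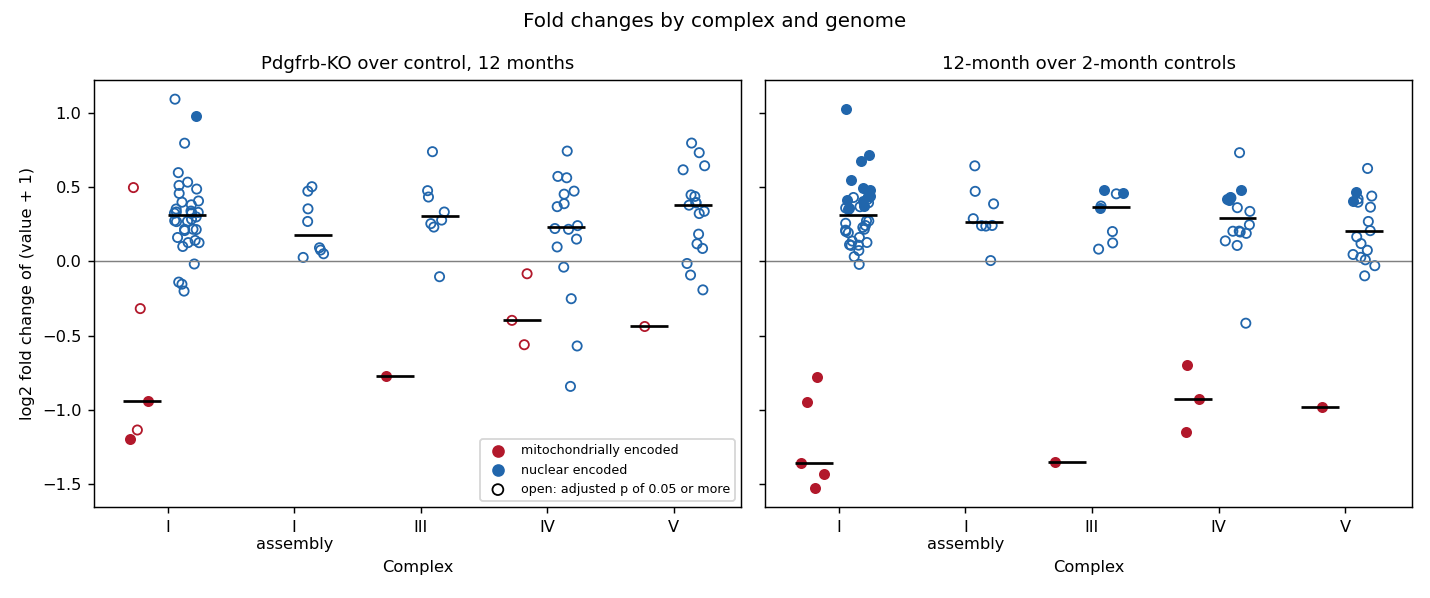
Log2 fold change of (value + 1) of each member by complex, for KO over 12-month control (left) and 12-month over 2-month controls (right); red points are mitochondrially encoded, blue points nuclear encoded, filled points passed an adjusted p under 0.05 from limma, and black lines are medians. With age all 10 mitochondrial points are filled and lie between -1.52 and -0.70, and the nuclear medians lie between 0.21 and 0.37.

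Between KO and 12-month control libraries few members passed. Of the 10 mitochondrial members, 3 passed as lower, none as higher, and the remaining 7 missed the threshold, beside 4.46% of all tested genes lower; 9 of the 10 values were below 0 and their median was -0.50. Of the 85 nuclear members, 1 was higher, 0 were lower and 84 did not pass, beside 4.96% of all tested genes higher. At an unadjusted p under 0.05 from limma, 27 nuclear members were higher and 0 lower, beside 2230 of 16344 tested genes higher and 2144 lower. The median over the 85 nuclear members was 0.32, with 73 above 0. Of all 16344 tested genes, 7907 were above 0 and 8437 below.

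The 3 mitochondrial calls were mt-Nd4, mt-Nd2 and mt-Cytb, and in each the groups did not overlap. mt-Nd4 had 2292, 2758, 3686 and 5151 in the KO libraries, against 5312, 7997, 11486 and 6687 in the 12-month controls, a log2 fold change of -1.19 (SE 0.27, adjusted p = 0.0205 from limma). mt-Nd2 had 3345, 4515, 5569 and 7253 in KO, against 7379, 10373, 12290 and 8724 in the 12-month controls (-0.94, SE 0.23, adjusted p = 0.0276 from limma). mt-Cytb had 12183, 16528, 17739 and 22834 in KO, against 23982, 30387, 35170 and 26853 in the 12-month controls (-0.77, SE 0.19, adjusted p = 0.0297 from limma). The exact permutation p of each was 0.0286. KO replicate 1 was the lowest and KO replicate 4 the highest of the KO libraries in all 3 genes. Each call was lost when single libraries were left out. mt-Cytb missed the threshold without 12-month control replicate 2 or 3 or KO replicate 1, 2 or 3 (adjusted p between 0.0533 and 0.0887 from limma), mt-Nd2 without 12-month control replicate 2 or 3 or KO replicate 1 or 2 (between 0.0593 and 0.0815), and mt-Nd4 without 12-month control replicate 2 or 3 or KO replicate 1 (between 0.0539 and 0.0582). mt-Nd4 also missed it without a filter on low values (0.0672), and all 3 did without trend and robust estimation (between 0.0544 and 0.0651).

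mt-Nd5 had 3659, 4387, 8249 and 12419 in KO, against 11341, 12902, 20082 and 12972 in the 12-month controls, a change of -1.13 with a wide error (SE 0.34, adjusted p = 0.0612 from limma), and KO replicate 4 lay among the controls. mt-Co1 had 33394, 45579, 59219 and 63461 in KO, against 56592, 71458, 97626 and 68437 in the 12-month controls (-0.56, SE 0.22, adjusted p = 0.137 from limma). mt-Nd1 had 8593, 12686, 13914 and 13972 in KO, against 11937, 16995, 17742 and 14183 in the 12-month controls (-0.32, SE 0.18, adjusted p = 0.293 from limma). In all 3 genes the groups overlapped.

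Of the uncertain genes, mt-Co2 had 94, 142, 120 and 114 in KO, against 107, 135, 135 and 118 in the 12-month controls (-0.08, SE 0.18). mt-Co3 had 44, 53, 61 and 94 in KO, against 53, 119, 91 and 71 in the 12-month controls (-0.40, SE 0.30), and mt-Atp6 had 33, 43, 53 and 47 in KO, against 48, 65, 62 and 63 in the 12-month controls (-0.44, SE 0.22). None of them passed.

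mt-Nd6 alone was above 0: it had 430, 499, 358 and 278 in the KO libraries, against 227, 235, 335 and 300 in the 12-month controls (0.50, SE 0.19, adjusted p = 0.134 from limma), values that overlapped. Without KO replicate 4 it passed the threshold as higher in KO (0.65). Its neighbor mt-Nd5 lies on the other strand (chrM:11742-13565, plus strand). Per kilobase, the ratio of mt-Nd6 to mt-Nd5 was 0.413, 0.400, 0.153 and 0.0787 in the KO libraries, 0.0703, 0.0640, 0.0586 and 0.0813 in the 12-month controls, and 0.0554, 0.0395, 0.0459 and 0.0434 in the 2-month controls. KO replicates 1 and 2 stood several times above every control, and KO replicate 4 lay among the 12-month controls. In human cells the mt-Nd6 mRNA is known to lack a stable poly(A) tail, unlike the other mitochondrial mRNAs. Whether the counting used strand is not given in the sources used here, and what sets this ratio was not tested.

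**Figure D4:**
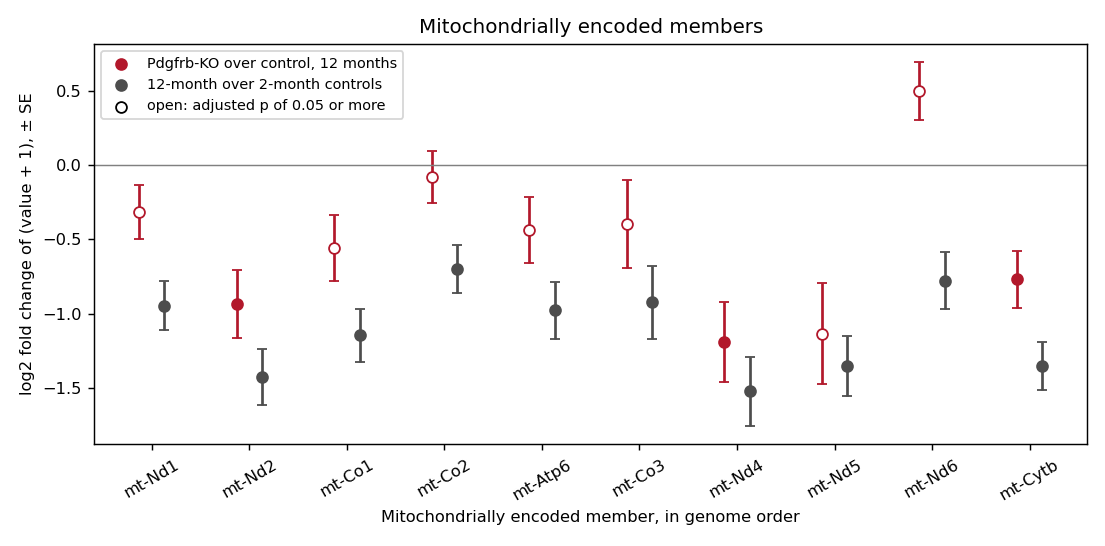
Log2 fold change of (value + 1) ± SE of the 10 mitochondrially encoded members in genome order, for KO over 12-month control (red) and 12-month over 2-month controls (gray), with open points for an adjusted p of 0.05 or more. With age every member lies below 0; in KO mt-Nd4 (-1.19), mt-Nd2 (-0.94) and mt-Cytb (-0.77) passed and mt-Nd6 lies at 0.50.

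Ndufc2, a small accessory subunit in the membrane arm of complex I, was the nuclear call. It had 2709, 2873, 1554 and 1434 in the KO libraries, against 1008, 1257, 851 and 1070 in the 12-month controls, a log2 fold change of 0.98 (SE 0.23, adjusted p = 0.0229 from limma, exact permutation p = 0.0286). The groups did not overlap, and KO replicates 1 and 2 were higher than the other KO libraries. With age Ndufc2 did not pass, with 1008, 1257, 851 and 1070 at 12 months, against 1064, 849, 882 and 1016 at 2 months (0.13, SE 0.12). It lost the KO call without 12-month control replicate 1 (adjusted p = 0.0644 from limma), 12-month control replicate 3 (0.0687) or KO replicate 1 (0.0655).

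The other nuclear members with the smallest p in each complex did not pass. Ndufa4 of complex IV had 1297, 1214, 1069 and 777 in KO, against 641, 865, 636 and 758 in the 12-month controls (0.57, SE 0.17, adjusted p = 0.0556 from limma). Uqcrb of complex III had 1614, 2025, 1261 and 846 in KO, against 764, 1013, 608 and 955 in the 12-month controls (0.74, SE 0.25, adjusted p = 0.0863 from limma). Atp5h of complex V, a stalk subunit, had 5746, 5911, 4003 and 2934 in KO, against 3008, 3049, 2286 and 3193 in the 12-month controls (0.64, SE 0.21, adjusted p = 0.0815 from limma). In all 3 genes KO replicate 4 lay within the range of the 12-month controls, and KO replicates 1, 2 and 3 lay above every 12-month control.

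Ndufaf5, an assembly factor that modifies a complex I subunit, had 214, 251, 204 and 174 in KO, against 138, 160, 128 and 166 in the 12-month controls, with no overlap (0.50, SE 0.16, adjusted p = 0.0736 from limma). Among abundant members, Atp5b had 15211, 17847, 14735 and 14388 in KO, against 13820, 13393, 13170 and 14189 in the 12-month controls (0.18, SE 0.11), again with no overlap, and Cox4i1 had 10415, 12674, 6849 and 6899 in KO, against 6536, 8190, 5412 and 7332 in the 12-month controls (0.39, SE 0.21). Uqcrc1 had 3014, 3760, 2556 and 3048 in KO, against 2576, 2770, 2571 and 2534 in the 12-month controls (0.23, SE 0.12). None of these genes passed.

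The KO counts rested on a few libraries. The number of mitochondrial members lower was 0 without KO replicate 1, 1 without KO replicate 2, 2 without KO replicate 3 and 4 without KO replicate 4, and 0 without 12-month control replicate 2 or replicate 3. The number of nuclear members higher was 21 without KO replicate 4, and 0 without KO replicate 1, 12-month control replicate 1 or 12-month control replicate 3. All genes called in KO moved too, between 859 and 1878 when 1 library was left out. Without both KO replicates 1 and 2, an alternative added after seeing the data, 0 mitochondrial members were lower and 0 nuclear members higher, the nuclear median was 0.02 and 52 of 85 values were above 0. The mitochondrial median was then -0.24, with 9 of 10 values below 0.

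Transcript length moved with the nuclear result. All 85 nuclear members have a transcript length in GENCODE vM21, and they are short: 32 have a main transcript under 700 bases and 28 between 700 and 1200. With age the members under 700 bases had a median log2 fold change of 0.37, and the 258 other tested genes of that length had 0.26. Between 700 and 1200 bases the medians were 0.30 for members and 0.24 for 1009 other genes, and from 1200 bases on they were 0.20 for 25 members and -0.03 for 12832 other genes. In the same length classes 28.1%, 28.6% and 20.0% of members were higher with age, and 19.8%, 23.1% and 10.4% of other genes. Other short genes were thus also higher at the median.

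For KO over 12-month control, the medians from the shortest class to the longest were 0.37, 0.33 and 0.22 for members, and 0.21, 0.18 and -0.03 for other genes. In the same classes 1 of 32, 0 of 28 and 0 of 25 members were higher in KO, and 10.1%, 8.47% and 5.05% of other genes. Over the 85 members, which share the same libraries, Spearman's rho between length and log2 fold change was -0.45 with age and -0.44 with KO, against -0.31 and -0.29 over the other tested genes with a length. By library, the other genes under 700 bases stood at a median of 0.47 and 0.50 above their own 12-library means in KO replicates 1 and 2, at 0.14 and -0.10 in KO replicates 3 and 4, and between -0.26 and 0.18 in the 12-month controls. The members of that length stood at 0.71 and 0.73 in KO replicates 1 and 2, at 0.27 and -0.05 in KO replicates 3 and 4, and between -0.32 and 0.27 in the 12-month controls. What part length has in the nuclear result was not tested beyond these classes.

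Several nuclear subunits have forms made in particular tissues. Ndufa4l2, a form of Ndufa4 known to be induced by hypoxia, had 474, 623, 278 and 295 in KO, against 569, 994, 490 and 424 in the 12-month controls (-0.57, SE 0.30, adjusted p = 0.250 from limma). It did not pass with age (0.34, SE 0.22, adjusted p = 0.283 from limma). Per kilobase, the ratio of Ndufa4l2 to Ndufa4 was 0.239, 0.335, 0.170 and 0.248 in KO, 0.580, 0.751, 0.503 and 0.365 in 12-month controls, and 0.4998, 0.472, 0.443 and 0.529 in 2-month controls. Every KO library lay below every control of either age in this ratio, which was computed for 3 pairs of forms and is given without a test.

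Cox4i2, the form of subunit 4 known from lung and from oxygen sensing, had 109, 246, 84 and 97 in KO, 146, 235, 91 and 141 in 12-month controls, and 119, 69, 77 and 90 in 2-month controls. It passed in neither comparison (-0.25, SE 0.35, with KO and 0.73, SE 0.26, with age). Its ratio to Cox4i1 per kilobase was at most 0.0299 in any library. Cox6a1, the widely expressed form of subunit 6a, had 4931, 6753, 3161 and 2544 in KO, 2416, 3048, 1732 and 2679 in 12-month controls, and 2273, 1521, 1531 and 1974 in 2-month controls, and did not pass in either comparison (0.74, SE 0.28, with KO and 0.43, SE 0.17, with age).

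Cox6a2, the form of heart and skeletal muscle, had 10, 32, 6 and 5 in KO, 15, 35, 16 and 15 in 12-month controls, and 17, 5, 37 and 13 in 2-month controls (-0.84, SE 0.54, with KO and 0.36, SE 0.50, with age). Cox6a2 passed in neither comparison, and its values were low. Of the skeletal muscle markers, 11 of 15 were lower in KO and 0 higher. Cox6b2, known as a testis form, had 71, 61, 39 and 57 in KO, 39, 73, 38 and 45 in 12-month controls, and 83, 50, 55 and 69 in 2-month controls, and passed in neither comparison. Cox7b2 and Cox8c, also testis forms, had means under 10 and are not members.

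**Figure D5:**
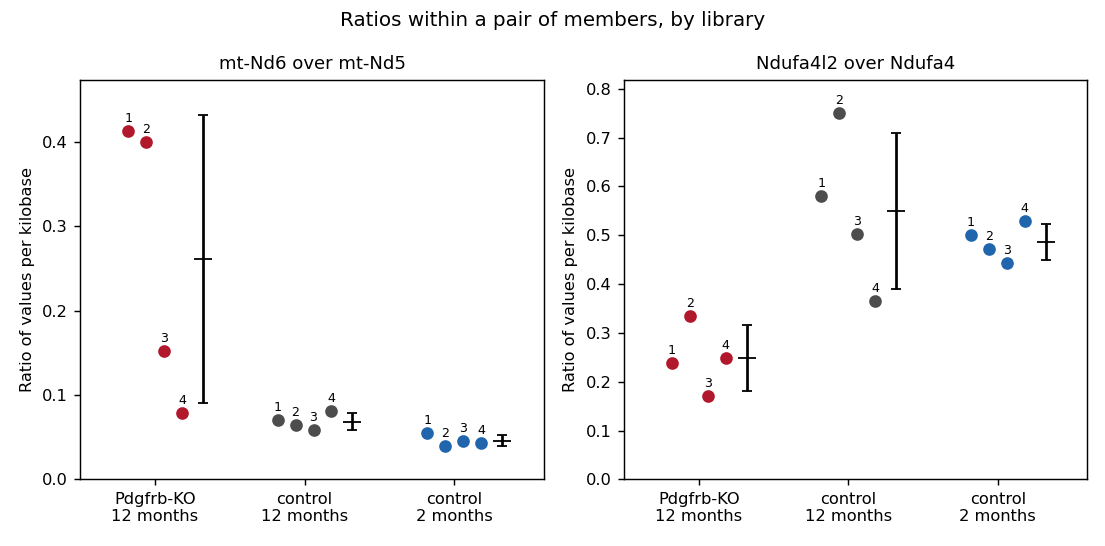
Ratio of values per kilobase in each library for mt-Nd6 over mt-Nd5 (left) and Ndufa4l2 over Ndufa4 (right), by group, with replicate numbers and mean ± SD. KO replicates 1 and 2 stand at 0.413 and 0.400 on the left, and the 4 KO libraries lie between 0.170 and 0.335 on the right, below all controls.

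Other genes of the pathway were read from lists. Of complex II, which is wholly nuclear encoded, Sdhc (0.42, SE 0.11), Sdhb (0.36, SE 0.10) and Sdhd (0.27, SE 0.09) were higher with age and Sdha did not pass (0.19, SE 0.08), and Sdhb was higher in KO (0.55, SE 0.16, adjusted p = 0.0476 from limma). Cyc1, the cytochrome c1 of complex III, and Cycs, cytochrome c, passed in neither comparison. Of the other assembly factors, 4 of 37 tested were higher and 1 lower with age, and 2 of 38 were higher in KO, which were Pet100 (0.94) and Sdhaf4 (0.82). Of 77 proteins of the mitochondrial ribosome, which translates the 10 mitochondrial members, 15 were higher and 0 lower with age (median 0.26), and 1, Mrps30, was higher in KO (median 0.24).

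Few of the genes that replicate, transcribe and process the mitochondrial genome passed. Of 19 replication and transcription genes, 2 were higher and 1 lower with age, and 0 passed in KO. These were Tk2 and Dguok, kinases that supply nucleotides to mitochondria, which were higher (0.38 each), and Polg2, a subunit of the mitochondrial DNA polymerase, which was lower (-0.38). Tfam, which packages and transcribes mitochondrial DNA, averaged 1412 in KO, 1030 in 12-month controls and 845 in 2-month controls and passed in neither comparison (0.46, SE 0.13, adjusted p = 0.0521, with KO and 0.27, SE 0.10, adjusted p = 0.0768, with age, both from limma). Polrmt, the mitochondrial RNA polymerase, averaged 534 in KO, 538 in 12-month controls and 576 in 2-month controls. Of 19 genes of RNA processing, Slirp, which stabilizes mitochondrial mRNA, was higher (0.43) and Trmt10c, part of the tRNA-cutting enzyme, lower (-0.35) with age, and 0 passed in KO.

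Of 8 transcriptional regulators tested, Yy1 (-0.46) and Pprc1 (-0.55) were lower with age, and 0 passed in KO. Nrf1 averaged 867 in KO, 933 in 12-month controls and 954 in 2-month controls, and Ppargc1a averaged 19.3 in KO, 28.5 in 12-month controls and 22.0 in 2-month controls. In neighboring pathways few genes passed: of 16 genes of the tricarboxylic acid cycle 0 passed with age and 1, Fh1, was higher in KO (0.38), and of 14 glycolytic genes Gapdh was higher with age (0.47) and Hk2 lower in KO (-0.42). The medians of these lists lay between 0.0071 and 0.033 in both comparisons. Of 18 genes of the mitochondrial membranes and of protein import, 3 were higher and 1 lower with age, and 0 passed in KO.

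Promoter sequence was available for 68 of the 85 nuclear members (RefSeq, GRCm38.p6, 250 bases before to 50 after the start). Each motif was counted on both strands and on its own, whether or not it overlapped another. The core GCATGCG of the NRF1 motif was in 17.6% of members and in 6.54% of all tested genes with a promoter, and the ETS motif CCGGAAG in 23.5% and 17.9%. The YY1 motif AAGATGG was in 16.2% and 7.89%, and the GC box GGGCGG in 44.1% and 65.0%. Of the 17 such members higher with age, 17.6% held the NRF1 core, 29.4% the ETS motif, 17.6% the YY1 motif and 29.4% the GC box. Of the 51 members not called with age, the shares were 17.6%, 21.6%, 15.7% and 49.0% in the same order. A match is a description and not a binding site. Shown are the promoters of Ndufc2, the nuclear call in KO, of Ndufa9, the lead nuclear member with age, and of Cox6a1, which holds 3 of the motifs, with matches in capitals. Ndufc2 lies at chr7:97399753-97400052 (plus strand), Ndufa9 at chr6:126849095-126849394 (minus strand) and Cox6a1 at chr5:115348909-115349208 (minus strand).
Ndufc2: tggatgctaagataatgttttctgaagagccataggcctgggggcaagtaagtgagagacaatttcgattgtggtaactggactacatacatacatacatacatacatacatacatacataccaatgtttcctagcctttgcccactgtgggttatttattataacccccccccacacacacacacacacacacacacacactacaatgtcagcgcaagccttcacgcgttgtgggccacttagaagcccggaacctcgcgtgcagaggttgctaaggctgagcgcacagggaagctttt
Ndufa9: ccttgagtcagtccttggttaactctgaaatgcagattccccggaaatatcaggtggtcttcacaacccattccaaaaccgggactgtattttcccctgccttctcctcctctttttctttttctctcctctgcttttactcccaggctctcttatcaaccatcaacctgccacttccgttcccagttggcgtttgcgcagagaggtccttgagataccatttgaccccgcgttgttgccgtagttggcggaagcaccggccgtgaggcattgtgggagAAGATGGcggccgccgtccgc
Cox6a1: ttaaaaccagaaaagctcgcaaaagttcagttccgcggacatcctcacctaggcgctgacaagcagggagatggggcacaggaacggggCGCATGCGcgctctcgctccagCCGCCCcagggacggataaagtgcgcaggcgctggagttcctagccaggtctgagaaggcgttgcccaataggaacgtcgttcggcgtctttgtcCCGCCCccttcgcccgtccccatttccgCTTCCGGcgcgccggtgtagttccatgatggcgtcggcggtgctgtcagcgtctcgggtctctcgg

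Markers of cell types also differed between the groups. Macrophage markers were higher in 7 of 9 with age and in 8 of 9 with KO, and their summed value was 65331 to 109506 in KO, 31770 to 45238 in 12-month controls and 15208 to 22326 in 2-month controls. Schwann cell markers were lower in 6 of 6 with age (summed 6070 to 7304 in 12-month controls, against 12847 to 15821 in 2-month controls). Mural markers were lower in 6 of 10 and higher in 1 with age, and lower in 1 and higher in 0 with KO. Mural markers summed to 24757 to 30028 in KO, 29749 to 51643 in 12-month controls and 46319 to 52807 in 2-month controls. Mature adipocyte markers were higher in 7 of 11 with age, and with KO 0 were higher and 1 lower. They summed to 124952, 127645, 64980 and 72944 in KO, 66486 to 111852 in 12-month controls and 60604 to 80106 in 2-month controls. Erythroid markers were higher in 2 of 5 in each comparison and summed to 199505, 107684, 64461 and 83578 in KO, 46582 to 101228 in 12-month controls and 26624 to 44587 in 2-month controls. Both sums were highest in KO replicates 1 and 2. Skeletal muscle markers summed to 1153 to 3249 in KO, 3919 to 10180 in 12-month controls and 2866 to 10761 in 2-month controls, and 0 of 15 passed with age. Markers of brown and beige adipocytes summed to 58 to 84 in KO, 55 to 128 in 12-month controls and 87 to 109 in 2-month controls, and none of the 6 tested with age and of the 4 tested with KO passed. Markers of fibroblastic progenitors were higher in 5 of 8 and lower in 1 with age, and higher in 1 and lower in 3 with KO. Their sum ran against the age count: it was 229655 to 356629 in KO, 161014 to 191410 in 12-month controls and 297120 to 360020 in 2-month controls, without overlap in either comparison. Endothelial markers were lower in 1 of 6 in each comparison, and of 6 lymphocyte markers 1 was higher with age and 0 passed with KO. No marker of these 10 lists was at 0 in all libraries. Proteins of the cytosolic ribosome, whose transcripts are mostly short, were higher in 28 of 95 and lower in 2 with age (median 0.30), and higher in 0 and lower in 2 with KO (median 0.14). The part of these genes and cell types in the OXPHOS values was not tested.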

How the data were processed

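Polyadenylated RNA of inguinal SVF was sequenced with a directional kit from 12 mice, 1 library each. The deposited values are scores that the authors made as follows: reads were trimmed with Trim Galore 0.6.0 and cutadapt, checked with FastQC, mapped to GRCm38 with STAR 2.7.0e, counted by gene, divided by a DESeq2 1.26.0 size factor and rounded to a whole number. The counter, its use of strand and its treatment of reads with several matches are not given in the sources used here. Division by size factors makes totals alike, so the raw depth behind each library is not shown by them, and values scale with a library's composition. The 12-month controls stand in 2 deposited tables, once beside the 2-month controls and once beside the KO libraries, and their values were equal in both in 100% of genes. No further column (0) held values of a sample.

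The test was that of limma 3.58.1 (R 4.3.3; variance trend, robust fit) on log2(value + 1), run on the 8 libraries of each comparison over genes that reached 10 in 4 or more of them, two-sided and with Benjamini-Hochberg adjustment over all genes tested. The code was checked on simulated data. For members given library by library, group labels were also permuted in an exact test of 70 arrangements. These were all mitochondrial members, the nuclear member with the smallest p and with the highest mean in each complex, and the tissue forms with their partners; other members are given by count or among those of smallest p in a complex, and 1 is not reported by itself here. Members and lists were chosen with earlier results of these data known. Sequences came from GENCODE vM21 (GRCm38) and RefSeq, and the NRF1 core replaced a longer form of that motif after the counts of the longer form had been seen. Python 3.11.15 with pandas 2.3.3, scipy 1.17.1, numpy 2.4.6 and matplotlib 3.10.9 wrote the tables and drew the plots. Alternatives were pseudocounts of 0.5 and 5, no filter, a mean of at least 50, 3 other scalings, a plain limma fit with neither trend nor robust step, library weights, a replicate block, all 12 libraries in one fit, and each library left out.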

Additional observations from a re-analysis of the deposited data

Results flagged for a closer look

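In groups of 4 libraries, a library was set apart when its gap to the nearest other was, as a part of the group's range, above Dixon's critical value. Of 96 groups of values read this way 6 had such a library, and chance flags about 1 in 20. In 2-month control replicate 3 the mitochondrial values stood highest: mt-Nd4 at 33200, mt-Nd5 at 52504, mt-Co1 at 217216 and the sum of the 10 mitochondrial members at 480044. Cox4i2 stood highest in KO replicate 2, at 246, and Cox6a2 in 12-month control replicate 2, at 35. The summed skeletal muscle markers of these 3 libraries were 10761, 3249 and 10180, each the highest of its group. A link between these sums and the flagged values was not tested.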

How the results depend on the processing

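All 10 mitochondrial members stayed lower with age under every alternative but 1 (9 without 2-month control replicate 3), and the ratio of mitochondrial to nuclear sums stayed lower in both comparisons, with log2 differences between -1.67 and -1.30 (age) and between -1.24 and -0.75 (KO) when 1 library was left out. Without KO replicates 1 and 2 it was -0.42 for KO.

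Counts moved more. Nuclear members higher with age were 22 by default, 6 without trend and robust estimation, 35 with weights per library, 1 in one fit over 12 libraries, and 2 to 40 when 1 library was left out. In KO, mitochondrial members lower (3) were 0 without trend and robust estimation and without KO replicates 1 and 2, and 0 to 4 when 1 library was left out. Nuclear members higher in KO (1) were 2 without a filter, 2 with equal totals outside the mitochondrial genome, 0 without trend and robust estimation, 2 with weights, 8 in the fit over 12 libraries, 0 without KO replicates 1 and 2, and 0 to 21 when 1 library was left out. All genes called numbered 2356 to 3961 with age and 859 to 1878 in KO when 1 library was left out, and 2542 in KO in the fit over 12 libraries. The causes were not tested.

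Whether the replicate numbers paired the mice cannot be decided from so few correlations. Same-numbered libraries correlated at -0.22 to 0.16 with age and -0.02 to 0.37 in KO. With age, only replicate 1 (0.16) correlated best with its own number. In KO, replicates 2 (0.37) and 3 (0.23) did so and the others did not. With the replicate number as a block, 17 nuclear members were higher with age, and in KO 2380 genes were called, with 5 mitochondrial members lower, 10 nuclear members higher and 1 nuclear member lower.

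Signs turned for values near 0 or near the error. With age Atp5b was -0.014 with quantile scaling and -0.012 to 0.029 when 1 library was left out, and Cox6a2 was -0.094 to 0.79. In KO mt-Co2 was -0.18 to 0.019 when 1 library was left out, and Cox7a2l was -0.0084 to 0.28, and -0.20 without KO replicates 1 and 2.

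Limits: 4 mice a group, rounded values with unknown raw depth, and, for the mitochondrial genes with nuclear copies and the nuclear members that share sequence, unknown treatment of shared reads.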

Other observations

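Gm28438, the chromosome 1 copy of mt-Nd3 (344 of 345 bases equal), was chosen after its values were seen. It had 27, 41, 27 and 25 in KO, 2, 3, 5 and 3 in 12-month controls, and 35, 38, 40 and 32 in 2-month controls. The 12-month controls thus stood apart from both other groups, with a log2 fold change of 2.88 (SE 0.36) for KO over 12-month control and -3.17 (SE 0.31) for 12-month over 2-month controls. mt-Nd3 itself had 1 to 5 in KO, 2 to 7 in 12-month controls and 3 to 8 in 2-month controls. The neighboring copies Gm28437 and Gm28439 had no such pattern: Gm28437 had 43, 73, 79 and 125 in KO, 99, 151, 183 and 120 in 12-month controls, and 250, 274, 444 and 263 in 2-month controls, and Gm28439 had 21, 29, 22 and 40 in KO, 45, 43, 83 and 38 in 12-month controls, and 117, 115, 232 and 156 in 2-month controls.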
